A study of Homo sapiens with 12 samples.

Results

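The genes described here are 30 targets of the transcription factor p53, followed on 12 arrays of HK-2 cells, a line of human proximal tubule epithelial cells, exposed to CsA or to control for 12 h or 48 h. Members were taken as every probe set whose platform annotation names exactly 1 gene, where that gene is among the 30. This found 28 of the 30 genes, on 70 probe sets, out of 19775 genes on 41091 such probe sets in all. The annotation used here names no probe set for BTG2, an antiproliferative protein, or for FDXR, the mitochondrial ferredoxin reductase, and neither is analysed here. SPATA18, which takes part in mitochondrial quality control, has 2 probe sets that stayed between 2.33 and 2.77 on the log2 scale on all arrays, near the floor of the values. The other 27 members had a probe set that passed the filter on dim values, a log2 value above 4 on at least 3 arrays, and each of these 27 lay above 4 on all 12 arrays. In all, 55 of the 70 probe sets passed and 15 were too dim. The brightest probe set by its mean over all arrays stands for a gene below, unless another is named.

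The 4 groups were CsA for 12 h, control for 12 h, CsA for 48 h and control for 48 h, with 3 arrays each that the labels call biological replicates. CsA is read here as cyclosporin A, an immunosuppressant that blocks calcineurin and is toxic to the kidney. The labels state neither its dose nor which vehicle the controls received. All cells grew in the same hormone-supplemented medium, were plated a day before exposure and were close to confluent when it began. The series asks which transcripts of these cells answer to CsA at each time.

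HK-2 is 1 line, immortalized with the papillomavirus genes E6 and E7. As background, the E6 protein directs p53 to degradation, so such cells hold p53 under a viral brake that primary tubule cells lack. In this bulk RNA a change in the number of cells that express a gene and a change in RNA per cell cannot be told apart. Among markers of epithelium, KRT8, KRT18 and EPCAM lay between 13.52 and 15.51 on all arrays, while CDH1 stayed at 2.17 to 2.2. Among the markers of the proximal tubule, CDH6, CDH16, PDZK1 and SLC4A4 were measured, and LRP2, CUBN, SLC34A1, SLC5A2, SLC22A6, GGT1, ANPEP and AQP1 stayed at or under 3.11, near the floor. The leukocyte and endothelial markers with a value stayed at or under 3.74 on all arrays. Markers of other types were well above the floor, COL1A1 (8.7 to 10.26) and LUM (6.7 to 9.61) of fibroblasts and PODXL (9.99 to 10.95) and SYNPO (6.79 to 8.67) of podocytes. COL1A2 and NPHS1 stayed at or under 2.82.

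p53 is a stress-activated transcription factor that binds a DNA element made of paired half-sites and switches on genes for cell cycle arrest, DNA repair, metabolic restraint and cell death. Several of its targets act back on it: MDM2 marks p53 for degradation, and PPM1D removes activating phosphates from it and from the kinases above it. In the kidney tubule p53 targets such as CDKN1A are known to be induced by toxic and ischaemic injury.

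One array stands apart. On replicate 3 of CsA at 48 h the hybridization controls had a median log2 signal of 7.38, where the remaining 11 arrays lay between 9.89 and 11.42. The 3' minus 5' difference of its ACTB control was 1.22, with 1.33 in control 48 h replicate 1 and 0.73 to 0.98 on the remaining arrays. The poly-A controls were dim on replicate 1 at 48 h, at 4.11 with CsA and 3.53 in control. They read 9.64 on replicate 3 of CsA at 48 h and 7.7 to 8.3 on the remaining arrays. The GAPDH control of CsA 48 h replicate 3 had a 3' minus 5' difference of 0.14, against -0.11 to 0.02 on the other arrays. Replicates varied more at 48 h, where probe sets had a median SD of 0.2217 with CsA and 0.1661 in control, than at 12 h, where it was 0.1159 with CsA and 0.1155 in control. The fit therefore gave each time its own variance, and 48 h results with CsA that change without replicate 3 are given both ways. The part of these technical differences in the results was not tested.

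The widest movement of the p53 targets came with time in culture, without CsA. Between the controls, 19 of the 27 members were higher at 48 h than at 12 h (70.4%), where 23.9% of all 11154 genes rose. TP53I3 alone fell, which is 3.7% of members against 20.6% of all genes. The median log2 change was 0.62 over the members and 0.03 over all genes tested. A log2 change above 1 was reached by 8 members (29.6%), against 6.37% of all genes. Groups of arrays that did not overlap, with 48 h above 12 h, were found for 21 members (77.8%), against 31.8% of all genes. With the replicate number as a block, since arrays of the same number deviated together between the controls, 20 members rose and 2 fell, PERP (-0.625, SE 0.21, limma adjusted p = 0.0331) joining TP53I3.

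**Figure D1:**
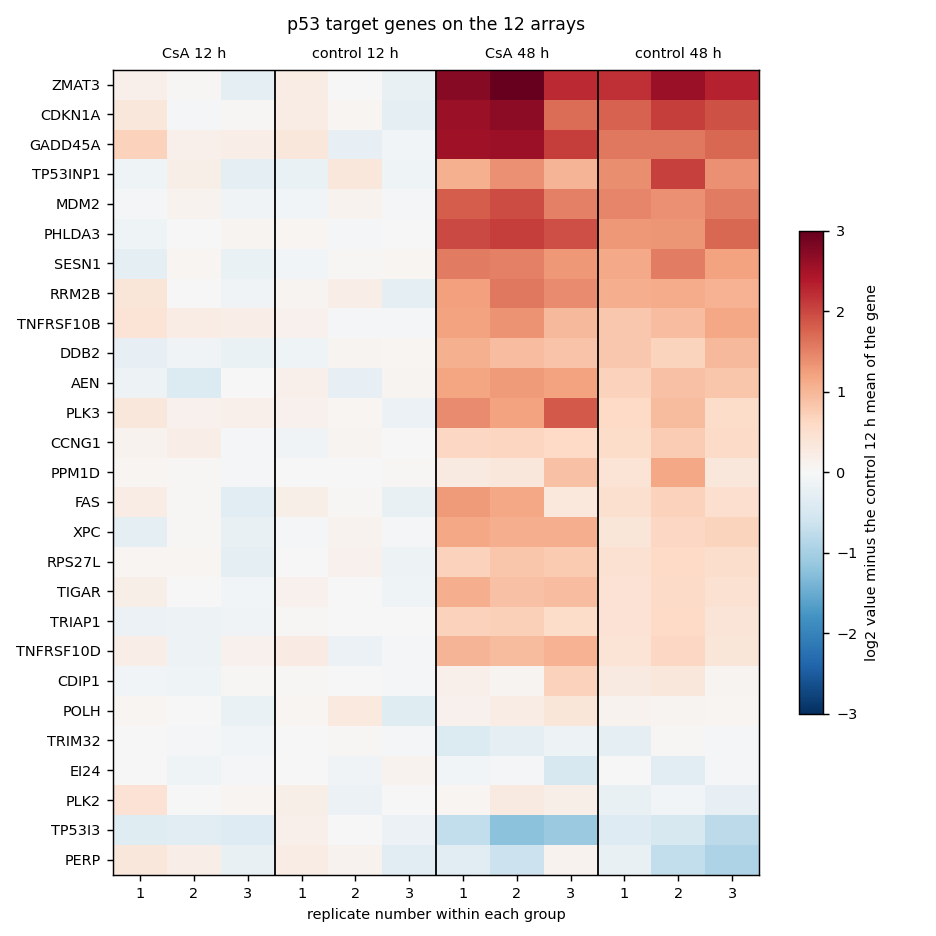
Each row is 1 of the 27 p53 targets and each column 1 array, in the order CsA 12 h, control 12 h, CsA 48 h and control 48 h. Colour gives the log2 value minus the gene's mean in the 12 h controls, red above and blue below. The 12 h arrays are near white, and both 48 h groups are red for most genes, with ZMAT3, CDKN1A and GADD45A the deepest. TP53I3 is blue at 48 h, and so is PERP except on CsA 48 h replicate 3, where it lies near the 12 h control mean.

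Among the genes of arrest and the cell cycle, 3 of 4 measured members rose with time in the controls. CDKN1A, the inhibitor of cyclin-dependent kinases that carries much of the p53 arrest, read 13.48, 13.8 and 13.64 in controls at 48 h, against 11.95, 11.78 and 11.44 in controls at 12 h. The groups lie far apart, and the change is 3.77-fold (log2 change 1.915, SE 0.24, limma adjusted p = 0.000121 by Benjamini-Hochberg). GADD45A, a stress protein that slows the passage into mitosis, read 12.27, 12.27 and 12.42 at 48 h, against 11.02, 10.44 and 10.6 at 12 h. Every 48 h control is above every 12 h control, a 3.09-fold rise (log2 change 1.63, SE 0.23). PLK3, a stress-responsive polo-like kinase, rose by 0.70 (SE 0.16). PLK2, a kinase of the same family, had a log2 change of -0.19 (SE 0.16) and did not pass the test.

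Of the genes that act back on p53, 4 of 5 rose. MDM2, the ubiquitin ligase of p53, read 11.98, 11.89 and 12.07 in controls at 48 h, against 10.42, 10.61 and 10.48 at 12 h. Neither group of MDM2 values spreads by more than a small part of the gap between them (log2 change 1.47, SE 0.12, limma adjusted p = 9.04e-06). ZMAT3, a zinc finger RNA-binding protein of the p53 programme, rose the most of the 27 members, 5.19-fold (log2 change 2.38, SE 0.23). CCNG1, a cyclin that brings a phosphatase to MDM2, rose by 0.63 (SE 0.10), and PPM1D, the phosphatase, by 0.62 (SE 0.18). The rise of PPM1D rests on control 48 h replicate 2, which read 11.25 against 10.5 and 10.43 in the others: without it the change was 0.36 and did not pass (adjusted p = 0.0926). TRIM32, another ubiquitin ligase of p53, had a change of -0.105 (SE 0.095).

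In DNA repair and nucleotide supply, 3 of 4 members rose. RRM2B, the p53-inducible subunit of ribonucleotide reductase, rose by 1.09 (SE 0.19). DDB2 and XPC, which find damaged bases for nucleotide excision repair, rose by 0.82 (SE 0.10) and 0.55 (SE 0.12). POLH, a polymerase that copies past damage, had a change of 0.07 (SE 0.19).

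The death receptors were mixed. TNFRSF10B, a receptor for the death ligand TRAIL, rose by 0.96 (SE 0.13). TNFRSF10D, a decoy for the same ligand, rose by 0.47 (SE 0.16, limma adjusted p = 0.0376), a call that was lost under 11 of 24 alternatives, 7 of them leaving out a single array. FAS, the receptor of FAS ligand, had a change of 0.56 (SE 0.24, limma adjusted p = 0.085).

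Among the intracellular factors of death and survival, 5 of 8 members rose. TP53INP1, a stress protein of autophagy and cell death, rose by 1.61 (SE 0.23). PHLDA3, which restrains the survival kinase AKT, read 9.73, 9.76 and 10.17 in controls at 48 h, against 8.5, 8.39 and 8.43 at 12 h (log2 change 1.45, SE 0.11, limma adjusted p = 6.99e-06). The 12 h values of PHLDA3 sit close together and all 48 h values lie above them. AEN, a nuclease of apoptosis, rose by 0.80 (SE 0.16), RPS27L, a ribosomal protein paralogue, by 0.52 (SE 0.13) and TRIAP1, a small survival factor of mitochondria, by 0.47 (SE 0.079). RPS27L did not pass without control 48 h replicate 2 (0.48, adjusted p = 0.0532). The genes that did not pass were PERP, a desmosomal protein of p53-dependent death, at -0.625 (SE 0.26), EI24, a protein of the endoplasmic reticulum, at -0.12 (SE 0.12), and CDIP1, a death-inducing membrane protein, at 0.23 (SE 0.13).

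In metabolism and redox, 2 of 3 measured members rose and 1 fell. SESN1, a sestrin that restrains growth signalling, rose by 1.29 (SE 0.14), and TIGAR, a phosphatase that lowers glycolysis, by 0.49 (SE 0.115). TP53I3, a quinone oxidoreductase, read 9.77, 9.69 and 9.37 in controls at 48 h, against 10.31, 10.18 and 9.99 at 12 h. Its 48 h values all lie below its 12 h values, and it fell by 0.55 on the log2 scale (SE 0.14, limma adjusted p = 0.00927). Without control 48 h replicate 3 the change was -0.432 and did not pass (adjusted p = 0.0684).

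The promoters of these genes were read for the element that p53 binds. RefSeq promoter sequences (GRCh38.p14, 250 bases before to 50 after the gene start) were at hand for 24 of the 30 members, and none for GADD45A, PHLDA3, RRM2B, TNFRSF10B, TNFRSF10D and TP53INP1. The published 10-base p53 half-site consensus was searched on both strands, which read alike because the consensus is its own reverse complement. It occurred in 8 of the 24 member promoters (33.33%) and in 2202 of 27305 RefSeq promoters (8.06%). A pair of half-sites at most 3 bases apart occurred in 1 member, DDB2, and in 7 of all promoters (0.026%). A match is a description of letters in this window, and many p53 sites lie outside such windows. The stretches below show the matched half-site in capitals, 5' to 3' on the gene's strand, for the measured members that hold one, so that the element can be set beside how each gene moved.

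SESN1: attgtcgtctGGACAAGTCTccacaagtca
DDB2: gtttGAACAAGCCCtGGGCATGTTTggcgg
AEN: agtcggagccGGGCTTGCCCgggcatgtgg
FAS: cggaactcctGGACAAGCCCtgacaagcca
RPS27L: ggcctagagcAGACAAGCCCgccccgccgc
EI24: cgtgcggcccGGGCATGCCCagtgcgggcg
PLK2: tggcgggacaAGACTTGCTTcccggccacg

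SESN1 lies at chr6:109009018-109009047 on the minus strand, and DDB2 at chr11:47214975-47215004 on the plus strand, where its half-sites start at positions 6 and 17 counted from the gene start. AEN lies at chr15:88621296-88621325 on the plus strand, FAS at chr10:88991299-88991328 on the plus strand, and RPS27L at chr15:63157517-63157546 on the minus strand. EI24 lies at chr11:125569457-125569486 on the plus strand and PLK2 at chr5:58460199-58460228 on the minus strand. In the order printed, the log2 changes over time in the controls were 1.29, 0.82, 0.80, 0.56, 0.52, -0.12 and -0.19, of which SESN1, DDB2, AEN and RPS27L passed the test. Members with a matched half-site thus stand both among those that rose and among those that did not.

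At 12 h CsA moved no p53 target past the threshold of the test used. None of the 27 members passed in either direction, where 0.00897% of all genes rose and 0% fell, and limma on the 12 h arrays alone also called none. At an unadjusted p under 0.05 there were 4 members (14.8%, where 7.73% of all genes passed that mark), TNFRSF10B (0.28, SE 0.091) and TP53I3, DDB2 (-0.187, SE 0.074) and TRIAP1 (-0.144, SE 0.057). With the replicate number as a block, since arrays of the same number deviated together at 12 h, again no member passed. In that fit 3 members were higher and 4 lower at an unadjusted p under 0.05 (25.9%). Of all genes 10.8% passed that mark, 6.17% higher and 4.64% lower. The median log2 change was -0.02 over the members, against -0.01 over all genes. CDKN1A read 12.05, 11.69 and 11.76 with CsA at 12 h, against 11.95, 11.78 and 11.44 in controls (log2 change 0.11, SE 0.17). The CDKN1A groups overlap.

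MDM2 read 10.45, 10.62 and 10.4 with CsA at 12 h, against 10.42, 10.61 and 10.48 in controls, and these values are interleaved (log2 change -0.02, SE 0.086). PLK3 read 6.5, 6.29 and 6.3 with CsA, against 6.27, 6.21 and 5.98 in controls (0.21, SE 0.115). PHLDA3 read 8.32, 8.42 and 8.53 with CsA, against 8.5, 8.39 and 8.43 in controls (-0.015, SE 0.081). The PLK3 arrays with CsA lie just above the controls, and those of PHLDA3 overlap them. The 2 members with the largest changes at 12 h were TP53I3 and GADD45A. TP53I3 read 9.8, 9.85 and 9.78 with CsA, against 10.31, 10.18 and 9.99 in controls, all 3 CsA arrays lying below the controls (-0.353, SE 0.10, limma adjusted p = 0.366). GADD45A read 11.37, 10.84 and 10.88 with CsA, against 11.02, 10.44 and 10.6 in controls. Its groups overlap (0.34, SE 0.17, limma adjusted p = 0.703).

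At 48 h with CsA most p53 targets lay somewhat above the 48 h controls, and 2 of the 27 passed the test: PLK3, the stress kinase, and PHLDA3, the AKT inhibitor. This is 7.41% of the members, where 1.7% of all genes rose. No member fell by limma, where 3.98% of all genes did. At an unadjusted p under 0.05 there were 7 members (25.9%), where 23.1% of all genes passed that mark in either direction. This count over both directions is near the background. By direction, 6 of the 27 members were higher at that mark, where 9.88% of all genes were. TP53I3 alone was lower at that mark, where 13.3% of all genes were. The median log2 change was 0.29 over the members and -0.005 over all genes. A change above 0 was seen for 21 members (77.8%), against 49.2% of all genes. CsA arrays lay above all control arrays for 11 members (40.7%), against 13.9% of all genes, and below them for 1 member, TP53INP1, against 15.8%. The mean log2 value over the 27 members was 11.253, 11.28 and 11.171 on the CsA arrays, against 10.942, 11.09 and 10.969 on the control arrays. The 48 h changes are small beside those of time: no member passed a log2 change of 1 in either direction with CsA, where 0.95% of all genes did upward and 2.89% downward.

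**Figure D2:**
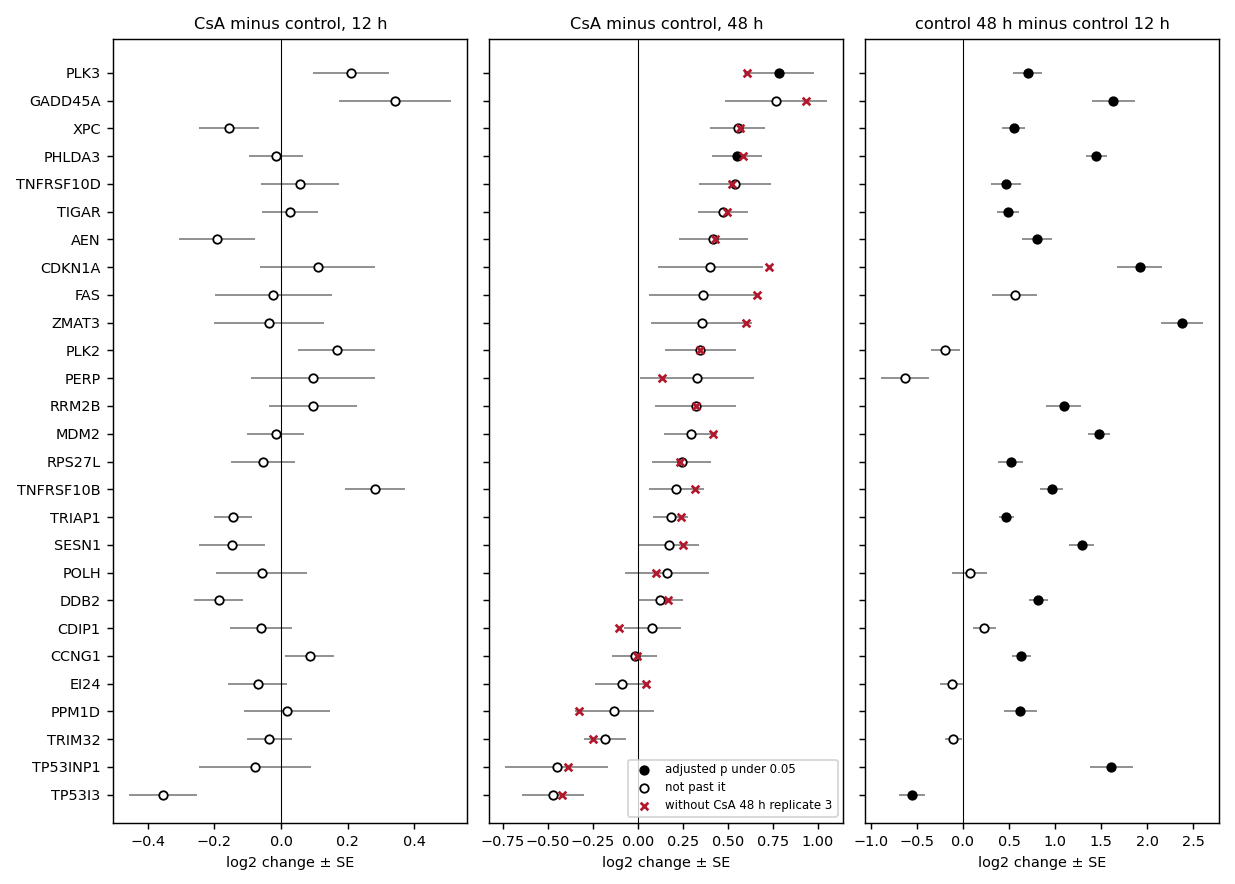
Log2 change of each p53 target, one row per gene, for CsA minus control at 12 h, CsA minus control at 48 h, and control at 48 h minus control at 12 h, with 3 arrays a group. Circles give the change, bars 1 SE, filled circles an adjusted p under 0.05, and red crosses the 48 h change without CsA replicate 3. At 12 h all circles are open, at 48 h PLK3 and PHLDA3 are filled, and over time 20 circles are filled; the horizontal scales differ.

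PLK3 read 7.57, 7.36 and 7.99 with CsA at 48 h, against 6.74, 7.11 and 6.71 in controls. All 3 CsA arrays lie above the controls, replicate 3 the highest of them. PLK3 rose 1.72-fold (log2 change 0.78, SE 0.20, limma adjusted p = 0.0436), and by 0.61 without replicate 3 (adjusted p = 0.0443). PHLDA3 read 10.42, 10.52 and 10.37 with CsA, against 9.73, 9.76 and 10.17 in controls. The CsA arrays sit close together above controls of which replicate 3 comes nearest. PHLDA3 rose 1.465-fold (0.55, SE 0.14, limma adjusted p = 0.0436), and by 0.58 without CsA replicate 3 (adjusted p = 0.0292).

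Both calls are near the threshold. In a limma fit of the 48 h arrays alone no member passed, where 0.278% of all genes rose and 0.825% fell, with 9 members higher and 1 lower at an unadjusted p under 0.05 (37%, where 21.8% of all genes passed that mark). The adjusted p was 0.0996 for PLK3 and 0.107 for PHLDA3. When 1 array at a time was left out, the adjusted p of PLK3 ranged from 0.0363 to 0.161 and that of PHLDA3 from 0.0234 to 0.197. PLK3 stayed past the threshold without CsA 12 h replicate 1, CsA 48 h replicate 2, CsA 48 h replicate 3 or control 12 h replicate 3, and lost it without any of the other 8 arrays. PHLDA3 stayed past it without CsA 12 h replicate 1, CsA 12 h replicate 3, CsA 48 h replicate 3 or control 48 h replicate 3, and lost it without the other 8. The changes themselves kept their direction in every one of 25 alternatives, at 0.55 to 0.93 for PLK3 and 0.47 to 0.69 for PHLDA3.

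GADD45A had the second largest change at 48 h. It read 13.24, 13.26 and 12.76 with CsA, against 12.27, 12.27 and 12.42 in controls. All 3 CsA arrays of GADD45A are above the controls, with replicate 3 nearest to them (log2 change 0.77, SE 0.285, limma adjusted p = 0.14). Without replicate 3 the change was 0.93 and passed (adjusted p = 0.0428). CDKN1A read 14.31, 14.41 and 13.39 with CsA, against 13.48, 13.8 and 13.64 in controls. Replicates 1 and 2 lie above every control and replicate 3 lies below every control (0.40, SE 0.29, limma adjusted p = 0.449). Without replicate 3 the CDKN1A change was 0.73 (adjusted p = 0.0507). PLK2 had a change of 0.35 (SE 0.20, limma adjusted p = 0.325).

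**Figure D3:**
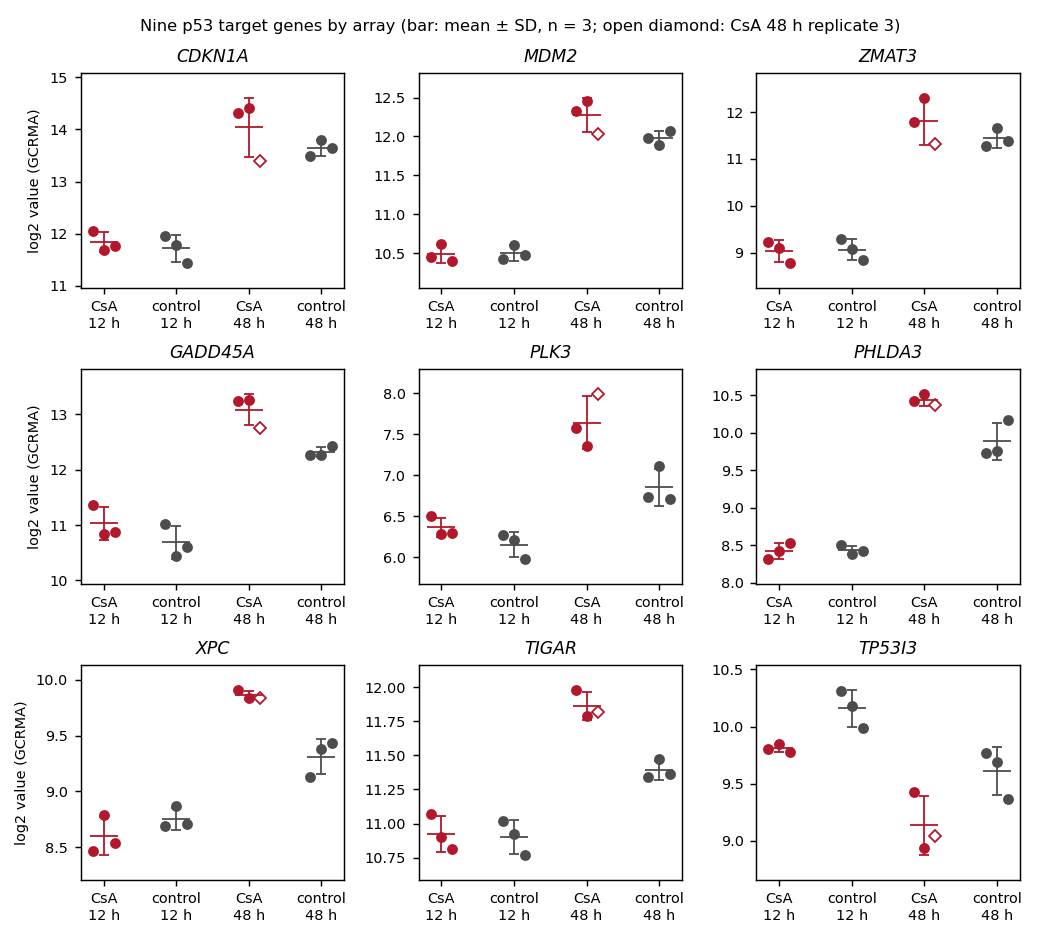
Log2 value of 9 p53 targets on each array, by group, with CsA in red left of its control in grey at each time. Bars give the mean ± SD of 3 arrays and the open diamond CsA 48 h replicate 3. For CDKN1A, MDM2, ZMAT3 and GADD45A the diamond is the lowest CsA 48 h array, for PLK3 it is the highest, and for PHLDA3, XPC and TIGAR it lies with the other CsA arrays.

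Of the genes that act back on p53, none of 5 passed at 48 h. MDM2 read 12.33, 12.46 and 12.03 with CsA, against 11.98, 11.89 and 12.07 in controls. MDM2 in replicate 3 lies among the controls and in the other CsA arrays above them (0.29, SE 0.147, limma adjusted p = 0.262). Without replicate 3 its change was 0.42 (adjusted p = 0.0541). The next brightest MDM2 probe set, 225160_x_at, read 11.02, 11.24 and 11.14 with CsA, against 10.15, 10.9 and 10.68 in controls. There all CsA arrays, replicate 3 included, lie above the controls (0.56, SE 0.21). The dimmer MDM2 probe sets 244616_x_at, 217542_at, 217373_x_at and 205386_s_at had changes of 0.055, 0.04, 0.43 and 0.038. None of these passed. ZMAT3 had a change of 0.35 (SE 0.28), CCNG1 of -0.019 (SE 0.125), PPM1D of -0.13 (SE 0.22) and TRIM32 of -0.18 (SE 0.12). Without replicate 3 ZMAT3 had 0.60 (adjusted p = 0.136), PPM1D -0.326 and TRIM32 -0.248, none passing.

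In DNA repair, none of 4 members passed with all arrays, and XPC came closest. XPC read 9.91, 9.84 and 9.84 with CsA at 48 h, against 9.13, 9.38 and 9.43 in controls. The XPC arrays with CsA agree closely, replicate 3 included, and lie above all controls (0.55, SE 0.15, limma adjusted p = 0.0594). It passed without replicate 3 (0.565, adjusted p = 0.0385). RRM2B had a change of 0.32 (SE 0.23), POLH of 0.16 (SE 0.23) and DDB2 of 0.125 (SE 0.126). Without replicate 3 POLH had 0.10.

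No death receptor passed. TNFRSF10D, the decoy, read 10.77, 10.69 and 10.78 with CsA, against 10.16, 10.35 and 10.11 in controls. Its CsA arrays all lie above the controls (0.54, SE 0.20, limma adjusted p = 0.139). FAS read 11.4, 11.29 and 10.45 with CsA, against 10.6, 10.83 and 10.63 in controls, so that replicates 1 and 2 lie above and replicate 3 below all controls (0.36, SE 0.30). Without replicate 3 the FAS change was 0.66 (adjusted p = 0.0858). TNFRSF10B had a change of 0.21 (SE 0.15), and of 0.32 without replicate 3.

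Among the intracellular factors, PHLDA3 was the only one of 8 to pass. AEN read 9.63, 9.71 and 9.65 with CsA, against 9.13, 9.33 and 9.27 in controls, with no overlap (0.42, SE 0.19, limma adjusted p = 0.225). TP53INP1 read 11.33, 11.62 and 11.29 with CsA, against 11.65, 12.31 and 11.64 in controls. TP53INP1 is the 1 member whose CsA arrays all lie below the controls (-0.453, SE 0.28, limma adjusted p = 0.376). PERP had a change of 0.33 (SE 0.32), RPS27L of 0.24 (SE 0.16), TRIAP1 of 0.18 (SE 0.097), CDIP1 of 0.08 (SE 0.16) and EI24 of -0.087 (SE 0.15). Without replicate 3 PERP had 0.13, and CDIP1 and EI24 turned sign, to -0.107 and 0.046, none passing.

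In metabolism and redox no member passed with all arrays. TIGAR read 11.98, 11.79 and 11.82 with CsA, against 11.34, 11.47 and 11.36 in controls. Its CsA arrays all lie above the controls (0.47, SE 0.14, limma adjusted p = 0.0775), and it passed without replicate 3 (0.49, adjusted p = 0.0437). TP53I3 read 9.43, 8.94 and 9.04 with CsA, against 9.77, 9.69 and 9.37 in controls. The lowest control of TP53I3 lies under the highest CsA array (-0.473, SE 0.17, limma adjusted p = 0.135). SESN1 had a change of 0.17 (SE 0.17).

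Markers of the tubule moved in the same contrast. All 4 measured proximal tubule markers fell with CsA at 48 h, among them the bicarbonate transporter SLC4A4 (log2 change -1.751, SE 0.24) and the cadherin CDH6 (-1.16, SE 0.11), and all 4 also fell without replicate 3. Of all genes 3.98% fell with all arrays and 8.35% without replicate 3. The mean log2 value of the 4 was 9.56, 9.71 and 9.47 with CsA, against 10.77, 11.15 and 10.48 in controls. Of 4 measured fibroblast markers none passed with all arrays, and 3 were lower without replicate 3, COL1A1, LUM and DCN. Their mean over the 4 was 5.96, 5.8 and 7.03 with CsA, against 7.33, 7.05 and 6.87 in controls. The epithelial markers, 4 measured, and the podocyte markers, 2 measured, had no member past the threshold at 48 h. The part of these shifts in the p53 target values was not tested.

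Without replicate 3, 5 of the 27 members rose at 48 h (18.5%), where 2.45% of all genes did: GADD45A, PLK3, PHLDA3, XPC and TIGAR. No member fell, where 8.35% of all genes did. The median change of the members was then 0.32, against -0.04 over all genes. Without both CsA 48 h replicate 3 and control 48 h replicate 1, the arrays with the largest ACTB 3' minus 5' difference, no member passed in limma, with 10 higher and 1 lower at an unadjusted p under 0.05 (40.7%, where 24.8% of all genes passed that mark).

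**Figure D4:**
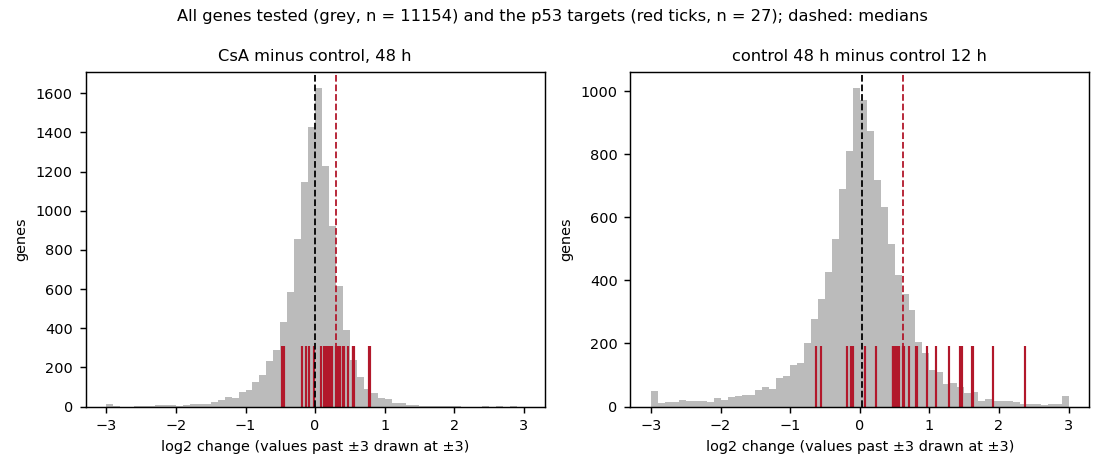
Histograms of the log2 changes of all 11154 genes tested, with the 27 p53 targets as red ticks and dashed lines at both medians, for CsA minus control at 48 h and for control at 48 h minus control at 12 h. The members' median lies at 0.29 against -0.005 for all genes at 48 h, and at 0.62 against 0.03 over time; changes past 3 are drawn at 3.

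The difference between the CsA effects at 48 h and 12 h was tested itself. None of the 27 members passed, where 0.224% of all genes had a larger and 0.825% a smaller effect at 48 h. At an unadjusted p under 0.05 there were 6 members (22.2%), all with a larger effect at 48 h. Of all genes 17% passed that mark, 6.88% with a larger and 10.1% with a smaller effect. The largest differences were 0.71 for XPC (SE 0.18, limma adjusted p = 0.081) and 0.61 for AEN (SE 0.22, adjusted p = 0.205). Without replicate 3 the XPC difference was 0.72 (adjusted p = 0.0594), and no member passed. With the replicate block, whose numbers pair the arrays at 12 h but not in every replicate at 48 h, XPC (limma adjusted p = 0.0375) and AEN (adjusted p = 0.0439) passed. The difference was 0.57 for PHLDA3 (SE 0.16, adjusted p = 0.116) and 0.575 for PLK3 (SE 0.23, adjusted p = 0.234). The median over the members was 0.30. The PLK3 and PHLDA3 calls at 48 h are thus not shown to differ from 12 h. This contrast shares its control arrays with the comparisons above.

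With CsA the levels of most members were likewise higher at 48 h than at 12 h. The mean at 48 h exceeded that at 12 h by 2.77 for ZMAT3, 2.21 for CDKN1A, 2.05 for GADD45A, 2.01 for PHLDA3 and 1.78 for MDM2 on the log2 scale. For XPC the same difference was 1.26 with CsA, against 0.55 in controls. TP53I3 was lower at 48 h in both, by -0.67 with CsA and -0.55 in controls. These differences with CsA are descriptions with no test.

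Probe sets of 1 gene did not always tell the same story at 48 h. Of the 27 members, 12 had 1 passing probe set and 15 had several. When each of 20625 probe sets was tested, 1 of the 55 member probe sets rose with CsA at 48 h (1.82%), where 1.01% of all probe sets did. That probe set was 222879_s_at of POLH, which read 6.64, 6.64 and 6.86 with CsA, against 5.69, 6.16 and 6.23 in controls (0.68, SE 0.16, limma adjusted p = 0.0421). Without replicate 3 its change was 0.61 (adjusted p = 0.0485). The brighter POLH probe set 219380_x_at, which stands for the gene above, had a change of 0.16. The remaining passing probe sets of POLH, 233852_at and 1557701_s_at, had changes of 0.48 (SE 0.175) and 1.06 (SE 0.655), neither passing. On 1557701_s_at control 48 h replicate 1 read 4.03, against 6.26 and 6.47 in the other controls. PHLDA3 by 218634_at had an adjusted p of 0.0614 and PLK3 by 204958_at of 0.0595 among the probe sets. The dimmer probe sets of these genes, 235534_at of PHLDA3 and 215462_at of PLK3, had changes of 0.38 (SE 0.26) and 0.53 (SE 0.59), neither passing. Over time in the controls 28 of the 55 rose (50.9%), where 19.8% of all did, and 2 fell where 17.7% of all did, 210609_s_at of TP53I3 and 217744_s_at of PERP.

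Replicate 3 of CsA at 48 h read low on some member probe sets. In it 11 of the 55 member probe sets (20%) lay more than 0.5 below the 48 h control mean, against 1 each in replicates 1 and 2 (1.82%). Among all probe sets the shares were 16.1% for replicate 3, 15.2% for replicate 1 and 12% for replicate 2. The members' share in replicate 3 is thus near that of all probe sets, and their shares in replicates 1 and 2 are below it. Of these 11 only the probe sets 210609_s_at of TP53I3 and 225912_at of TP53INP1 stand for their gene, 2 in all, and 6 of them were also low in control 48 h replicate 1. The probe sets of ZMAT3 differ: 1555609_a_at read 9.56, 9.47 and 6.23 with CsA, against 7.88, 8.66 and 8.64 in controls, while 225725_at read 11.81, 12.09 and 11.44, against 11.51, 11.58 and 11.35. Replicate 3 lies below all controls on the first ZMAT3 probe set and among them on the second. On 227221_at of ZMAT3 the CsA arrays read 11.37, 11.43 and 11.09, against 10.48, 10.71 and 10.51 in controls (0.73, SE 0.24). On 219628_at they read 11.79, 11.85 and 11.42, against 11.03, 11.23 and 11.09 (0.57, SE 0.34). All CsA arrays lie above all controls on both, and neither passed. TNFRSF10B by 209294_x_at read 10.85, 10.78 and 9.21 with CsA, against 9.22, 10.28 and 10.39 in controls, so that 1 array of each group is low. These are also the 2 arrays with the largest ACTB 3' minus 5' difference, and the part of that difference in these values was not tested.

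**Figure D5:**
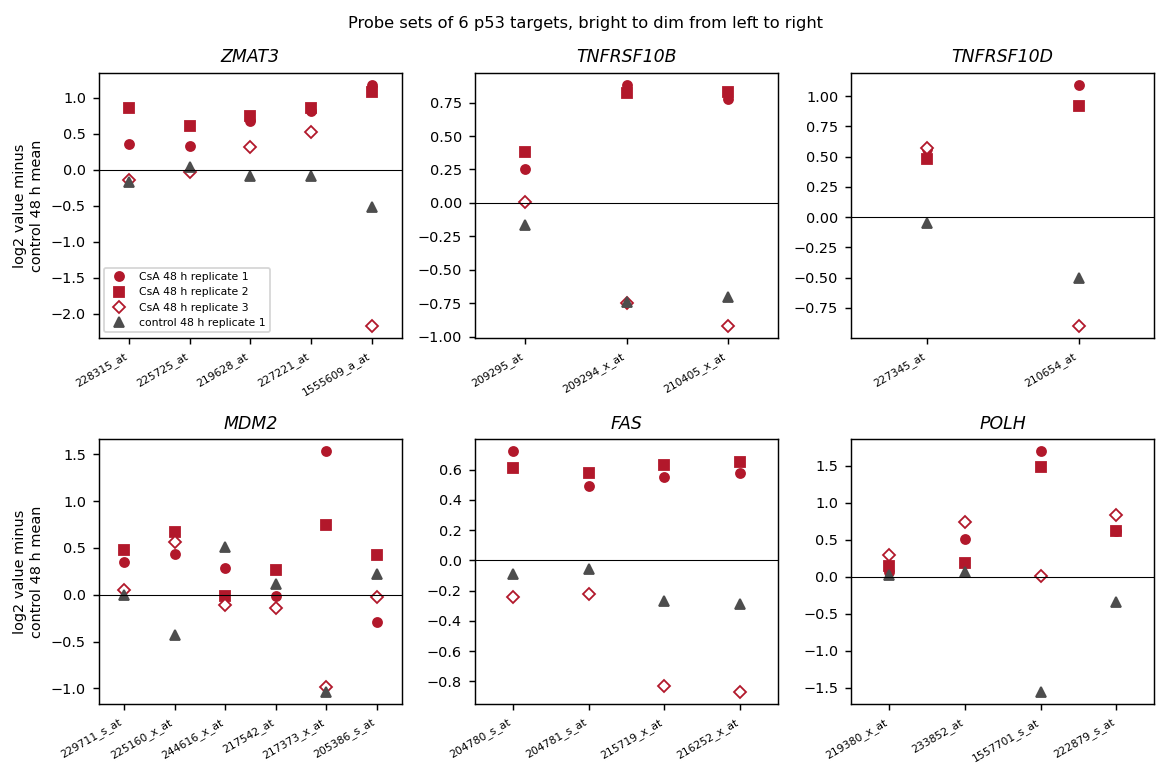
Log2 value minus the 48 h control mean for each passing probe set of ZMAT3, TNFRSF10B, TNFRSF10D, MDM2, FAS and POLH, ordered from bright to dim, on the 3 CsA 48 h arrays (red) and on control 48 h replicate 1 (grey triangles). The open diamonds of CsA replicate 3 fall to between -0.75 and -2.17 on a dim probe set of ZMAT3, TNFRSF10B, TNFRSF10D, MDM2 and FAS, and the triangles are low on several of the same ones. The vertical scales differ.

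The wider p53 network was described through lists that hold no member. Of 25 listed members of the p53 family, its regulators and cofactors, 21 were measured. Over time in the controls 5 rose and 2 fell, where 23.9% of all genes rose and 20.6% fell. MDM4, the relative of MDM2 that blocks p53, rose by 1.36 (SE 0.12), RCHY1, another p53 ubiquitin ligase, by 0.75 (SE 0.10), and the coactivator CREBBP by 0.67 (SE 0.11). The checkpoint kinases CHEK1 and CHEK2 fell by 1.27 (SE 0.19) and 1.03 (SE 0.25). With CsA at 48 h none rose, where 1.7% of all genes did. In the same contrast 1 fell, the damage kinase ATM, by 0.50 (SE 0.12, limma adjusted p = 0.0388), where 3.98% of all genes fell. Without replicate 3, 2 fell, where 8.35% of all genes did: ATM (-0.504, adjusted p = 0.0248) and CHEK1 (-0.982, adjusted p = 0.00772). With all arrays CHEK1 had -0.72 (adjusted p = 0.0926).

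Of 47 other p53 targets 36 were measured, and over time in the controls 12 rose and 5 fell, where 23.9% of all genes rose and 20.6% fell. GDF15, a stress cytokine, rose by 3.37 (SE 0.215), BAX, which opens mitochondria in apoptosis, by 1.05 (SE 0.26), SESN2, a sestrin, by 1.245 (SE 0.25), and PMAIP1, a trigger of the same apoptotic route, by 0.46 (SE 0.13). The 5 that fell were SFN (-1.94, SE 0.41), THBS1 (-1.39, SE 0.38), APAF1 (-1.25, SE 0.17), KITLG (-0.93, SE 0.15) and PML (-0.55, SE 0.13). With CsA at 48 h 2 rose and 2 fell, where 1.7% of all genes rose and 3.98% fell. TGFA, a growth factor of the EGF receptor, rose by 1.72 (SE 0.40, limma adjusted p = 0.033), and EPHA2, a receptor kinase, by 0.69 (SE 0.14, adjusted p = 0.0193). APAF1, the core of the apoptosome, fell by 1.08 (SE 0.205, adjusted p = 0.0155), and PANK1, a kinase of coenzyme A synthesis, fell by 1.11 (SE 0.18, adjusted p = 0.0104). GDF15 had 0.69 (SE 0.26, adjusted p = 0.148) and BAX had -0.04 (SE 0.32). Without replicate 3, 3 rose and 3 fell, where 2.45% of all genes rose and 8.35% fell. TGFA, EPHA2, APAF1 and PANK1 stayed past the threshold, PMAIP1 was higher by 0.45 (adjusted p = 0.0332) and THBS1, a matrix protein, lower, with a change of -1.48 (adjusted p = 0.04). GDF15 then had 0.83 (adjusted p = 0.0542), and BAX turned to 0.325 (adjusted p = 0.401). The median change of this list at 48 h was 0.12, against 0.29 for the members. At 12 h with CsA no gene of this list passed, where 0.00897% of all genes rose and 0% fell. GDF15 had 0.88 at 12 h (SE 0.15, limma adjusted p = 0.137), with all CsA arrays above the controls. PMAIP1 had 0.24 at 12 h, SESN2 -0.21 and BAX -0.01.

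Genes of cell division moved opposite to the p53 targets over time. All 24 mitosis genes fell in the controls between 12 h and 48 h (median -2.37), and 24 of 25 measured DNA replication genes fell (median -1.67), where 20.6% of all genes fell. With CsA at 48 h 1 mitosis gene and 10 replication genes fell relative to the 48 h controls, where 3.98% of all genes fell. Without replicate 3 these counts were 21 and 19, where 8.35% of all genes fell. The mean log2 value of the mitosis genes was 8.2, 7.66 and 10.1 with CsA at 48 h, against 9.58, 9.14 and 9.18 in controls. Replicate 3 with CsA thus held the highest mitosis level of the 48 h arrays, and among the CsA arrays at 48 h it also held the lowest CDKN1A value. The part of cell division in the p53 target values was not tested.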

How the data were processed

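RNA of 12 HK-2 cultures was measured on Affymetrix arrays. The deposited table holds log2 values for 54675 probe sets, which the authors made with GCRMA per the submitters' processing notes; neither its settings nor any scan date is stated there. GCRMA draws dim probe sets toward a floor, so small values carry little information. A platform annotation named 1 gene for 41091 probe sets, several for 1801 and none for 11783. Of the single-gene probe sets, 20625 lay above 4 on at least 3 arrays, and the brightest stood for each of 11154 genes. Levels of different genes were not compared with each other.

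All 12 arrays entered 1 limma 3.58.1 model (R 4.3.3) with 4 groups and 1 variance factor for each time, because the 48 h arrays varied more (relative variance 1.7, against 0.5884 at 12 h). Tests were two-sided, with Benjamini-Hochberg adjustment over all genes at a threshold of 0.05, and every adjusted p above comes from limma. A change is CsA minus control, or 48 h minus 12 h. The code was tested on simulated data. Each group's 3 arrays limit the precision, and the labels do not say whether replicates came from separate passages, so p-values measure only the spread between these samples.

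The members and gene lists were chosen with earlier results of these data known, so no count over them is independent support. Genes given for every array are CDKN1A, MDM2, members past the threshold with CsA, and the 2 largest changes at each time; others shown by array (XPC, TIGAR, TNFRSF10D, FAS, AEN, TP53INP1 and single probe sets) were chosen after their values were seen. Replicate numbers, taken from the labels, paired the arrays at 12 h (correlations of deviations from group means 0.467 to 0.577) and between the controls (0.278 to 0.325). At 48 h the correlations were 0.096, 0.3 and -0.051 for replicates 1, 2 and 3, so that replicate 2 alone lay in the range seen between the controls. Alternatives were other filters, probe set rules, weights, priors and normalizations, a replicate block, and leaving out arrays. Promoter sequences came from RefSeq, GRCh38.p14.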

Additional observations from a re-analysis of the deposited data

How the results depend on the processing

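The rise of the p53 targets over time in the controls kept its direction: leaving out 1 array at a time gave 16 to 21 members higher, 0 to 2 lower and a median log2 change of 0.518 to 0.671. The lowest median, without control 48 h replicate 2, lay below the 0.624 of the model used by more than 0.076, the spread of the members' mean between replicates. The count of members lower, 1 by the model used, was 2, PERP beside TP53I3, with the mean of all probe sets, 1 variance factor per group, median centring, the replicate block, or without CsA 48 h replicate 3 and control 48 h replicate 1 together, an alternative chosen after seeing the data.

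With CsA at 48 h the median log2 change was 0.199 to 0.316 when 1 array was left out, against 0.294 by the model used. Its lowest value, without CsA 48 h replicate 2, also moved by more than that spread. The count of members higher, 2 by the model used, ranged from 0 to 5. It was 0 with no filter on dim probe sets, with the mean of all probe sets, with the 48 h arrays alone, without replicate 1 of both 48 h groups, and in the added setting above. It was 1 with 1 variance factor per group, with trend and robust priors, and with median centring, 7 with no array weights, and 10 with 1 weight per array, where CsA 48 h replicate 3 got a weight of 0.1371 and 1 member, TRIM32, was lower. With the replicate block it was 4 (GADD45A, TIGAR, TNFRSF10D and XPC), although the numbers did not pair the 48 h arrays in every replicate. More of all genes were higher in these settings too. At an unadjusted p under 0.05 the share was 14.2% with no array weights, 15.4% with 1 weight per array and 12% with the replicate block, against 9.88% by the model used. Tested by probe set with no array weights, 8 member probe sets rose in place of 1. For the difference between the effects, 0 members higher became 4 with 1 weight per array and 2 (AEN and XPC) with the replicate block. The share of all genes higher at an unadjusted p under 0.05 was 10.6% and 9.07% in these settings, against 6.88% by the model used. Causes were not tested.

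At 12 h no alternative called a member, and the leave-one-out median was -0.063 to 0.031. The near-zero MDM2 change turned positive with the mean of all probe sets (0.046) and without CsA 12 h replicate 1 (0.003), CsA 12 h replicate 3 (0.031) or control 12 h replicate 2 (0.038), and that of CDKN1A turned negative without control 12 h replicate 3 (-0.029). With 1 array left out at a time the MDM2 change ranged from -0.082 to 0.038 and that of CDKN1A from -0.029 to 0.222. For the members given for each array or called over time, 686 of the remaining comparisons with an alternative kept their direction and side of the threshold, 48 lost the call and 16 gained it. Dim probe sets near the floor limit what can be said of SPATA18.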
